A study of Mus musculus with 17 samples.

Results

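The arrays described here compare RNA of sorted skeletal stem and progenitor cells from fracture callus and from uninjured bone, in mice whose titles mark removal of the ovaries. Of the 17 arrays of the series, 4 were chosen by their titles: those with 3-letter codes that mark ovariectomy (OVX) and either a fracture callus or uninjured bone. Each group held 1 array of mouse skeletal stem cells (mSSCs) and 1 of the bone, cartilage and stromal progenitors that descend from them (mBCSPs). All donors were C57BL/6 females. Per the study's methods, surgery on the ovaries took place when mice were 8 weeks old. In the OVX callus group the femur was fractured and pinned 6 weeks later, at 14 weeks, and the callus was taken on day 7 after fracture. The OVX uninjured group had the same surgery and no fracture, and no estradiol was given in either group. Cells that carried CD45, Ter119 or Tie2 were excluded in the sort, and sorted cells were sorted again. The labels do not say whether an array held cells of 1 mouse or of several, or whether the mSSC and mBCSP arrays of a group came from the same mice.

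The label of the OVX callus group is not settled. The titles and source names of both callus arrays say OVX, while their treatment tags say sham surgery with fracture. Calls, fold changes, list medians and the counts of genes that differed between responses were therefore also computed with the other pair of OVX callus arrays, whose titles and tags both say OVX, in their place. That pair has 2-letter titles, and its arrays differ in title form from the uninjured arrays they are then set against.

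A fracture of this kind heals through a callus in which skeletal progenitors form cartilage that is later replaced by bone. Cartilage cells that enlarge before this replacement make Indian hedgehog, encoded by Ihh, a signal that drives the growth of younger cartilage cells and the formation of bone beside them. The collagens that fill a callus have to be hydroxylated, folded, trimmed and crosslinked by enzymes of the secretory pathway. Loss of ovarian hormones lowers bone mass. The comparison shows how RNA of the sorted fractions differed between callus and uninjured bone in animals with titles that state this loss. RNA of sorted cells is a bulk sample, so fewer cells of a type and less RNA per cell cannot be told apart.

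All levels below are log2 signal after quantile normalization, with a floor at 5.95, and each pair of levels or differences gives mBCSPs first and mSSCs second. A log2 fold change (log2 FC) is the mean of both population-matched differences, callus minus uninjured. Its standard error (SE) and adjusted p come from a single limma fit over all 17 arrays with Benjamini-Hochberg adjustment over 14504 genes. A gene was called when this adjusted p was under 0.05. Since each group has 1 array per population, the SE reflects how far differences between mSSC and mBCSP arrays vary over the pairs of the series, and not a spread between replicate mice. The 4 arrays had raw medians of 7.85 to 7.87 and Spearman correlations of 0.82 to 0.96 with each other, highest between both uninjured arrays. Among the other arrays, the mBCSP callus array with a 2-letter injury title correlated about equally with the OVX uninjured (0.84 and 0.84) and OVX callus arrays (0.82 and 0.83).

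Transcripts of the sorted lineage were present on all 4 arrays, though not of each marker at a high level. The mean of 10 such markers was 10.39 and 9.97 in uninjured bone and 11.05 and 10.84 in callus. Of the 10, 3 were called higher, against 9.12% of all genes, and 0 were called without the title form term. Their median log2 FC was 0.78, with 7 above 0 and 3 below. Only some of them are named here. Itgav, the AlphaV integrin used in the sort, stood at 11.46 and 11.25 in uninjured bone and 12.25 and 12.02 in callus, and Cd200, also used in the sort, at 12.87 and 12.19 and 13.55 and 13.46. Thy1, which marks more mature osteogenic progenitors, lay near the floor on all 4, at 6.27 and 6.56 and 6.33 and 6.22. Ptprc, which encodes the excluded CD45, was not near the floor: it stood at 14.74 and 14.62 in uninjured bone and 12.02 and 13.53 in callus. Blood cell transcripts thus remained on these arrays, at lower levels in callus, and their values are given with the last groups of results.

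In callus, 1323 of the 14504 genes rose (9.12%) and 588 fell (4.05%). All 1911 moved the same way in mBCSPs and mSSCs, but a test of the mean of both differences favours such genes. This agreement is therefore no separate result. Of all genes tested, 4276 had an unadjusted p under 0.05. Of the called genes, 96 rose by at least 8-fold and 12 fell by at least 8-fold, and 15 rose by at least 16-fold. The median over all genes tested was -0.05. Without the callus mBCSP array 317 genes were called higher and 38 lower, without the callus mSSC array 705 and 389, without the uninjured mBCSP array 638 and 90, and without the uninjured mSSC array 326 and 58. Without the mSSC callus array with a 2-letter injury title the counts were 2253 and 1576, and without its mBCSP counterpart 2256 and 1570. With the mean of 72 blood cell genes as a covariate, 796 genes were called higher and 301 lower.

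Without a model, 1446 genes (9.97%) were at least 2-fold higher in callus in both populations and 800 (5.52%) at least 2-fold lower. The shared rises made up 72.2% of those in mBCSPs and 74.3% of those in mSSCs, and the shared falls 50.4% and 53.7%. In 10 genes mBCSPs were at least 2-fold higher and mSSCs at least 2-fold lower, and in 4 the reverse. Across genes, which are not independent replicates, the differences of both populations had a Pearson correlation of 0.80 and a Spearman correlation of 0.79. Both callus arrays lay above both uninjured arrays in 4935 genes (34%) and below both in 5348 (36.9%), so a lack of overlap between 2 arrays and 2 others is common in these data.

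**Figure D1:**
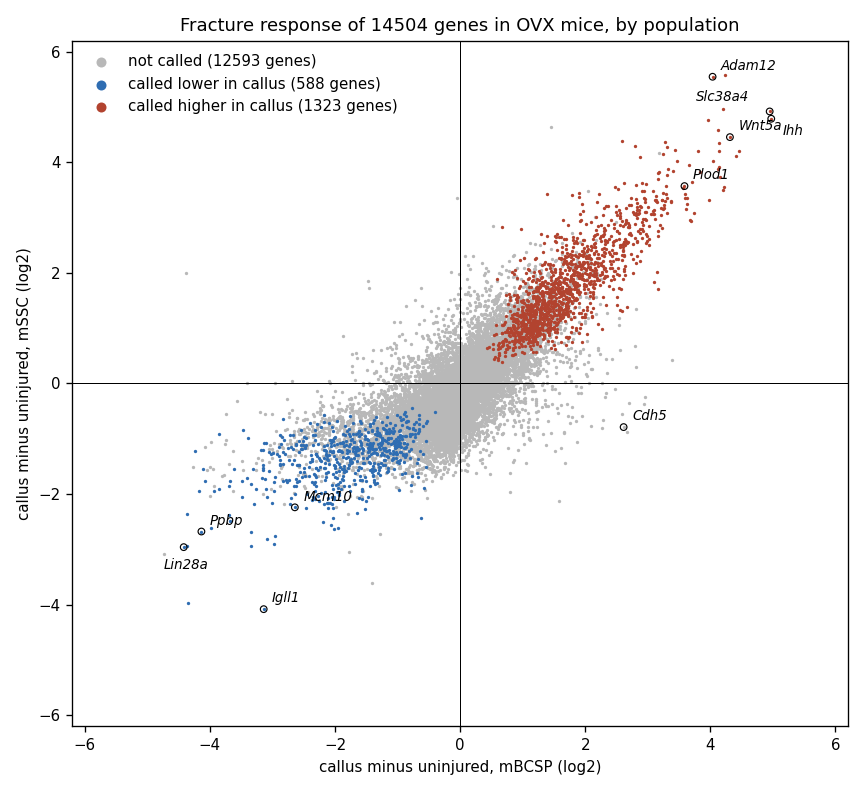
Each point is 1 of 14504 genes, with the log2 difference of callus minus uninjured in mBCSPs on the horizontal axis and in mSSCs on the vertical axis, red for the 1323 genes called higher, blue for the 588 called lower and grey for the others. Ihh, Wnt5a and Adam12 lie far out where both differences are positive, Lin28a and Igll1 where both are negative, and Cdh5, an endothelial gene, was higher in mBCSPs and lower in mSSCs.

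Slc38a4, an amino acid transporter, stood at 5.98 and 6.30 in uninjured bone and at 10.93 and 11.22 in callus, a log2 FC of 4.93 (SE 0.44, adjusted p = 0.000203). Ihh stood at 7.19 and 7.82 against 12.16 and 12.60, a log2 FC of 4.88 (SE 0.41, adjusted p = 0.000203). Slc38a4 was close to the floor in uninjured bone, and in both genes the populations were alike in each state to within 1 log2 unit. Adam12, a membrane protease, stood at 8.60 and 6.59 against 12.64 and 12.14, and its log2 FC was 4.79 (SE 0.54, adjusted p = 0.000532). Its uninjured arrays differed by more than its callus arrays did. Wnt5a, a Wnt ligand that acts largely without beta-catenin, stood at 6.94 and 6.64 against 11.25 and 11.10, a log2 FC of 4.38 (SE 0.27, adjusted p = 7.14e-05). Its relative Wnt5b had 7.08 and 6.92 against 11.21 and 11.27 and a log2 FC of 4.24 (SE 0.63). The other 7 of the 12 largest rises were Pak3, a kinase of the cytoskeleton (4.91), Srpx (4.58), the retinoic acid producing enzyme Aldh1a3 (4.36), the ephrin receptor Epha3 (4.35), the adaptor Grb14 (4.33), the sulfatase Arsi (4.26) and Enc1 (4.17). In all 12 both callus arrays lay above both uninjured arrays, as in 1320 of the 1323 genes called higher and 34% of all genes. The choice of called genes by size favours this. Of the 12, Aldh1a3 lost its call under 3 of 34 alternative settings and the other 11 kept theirs under each.

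The largest falls included genes of blood cells and genes of unstated function. Lin28a, an RNA-binding protein of early development and of blood progenitors, stood at 12.73 and 12.96 in uninjured bone and 8.31 and 10.00 in callus, a log2 FC of -3.69 (SE 0.65, adjusted p = 0.00501). Igll1, a part of the receptor of early B cells, stood at 10.70 and 12.63 against 7.56 and 8.55, a log2 FC of -3.61 (SE 0.80, adjusted p = 0.0151). Ppbp, a platelet chemokine, stood at 10.27 and 10.21 against 6.13 and 7.53, a log2 FC of -3.41 (SE 0.53, adjusted p = 0.00272). In these 3 genes the callus mSSC array kept more signal than the callus mBCSP array. The largest fall of all was that of the unnamed transcript 1700110I01Rik, from 10.60 and 10.26 to 6.26 and 6.29 (log2 FC -4.15, SE 0.50). Of the others, Insyn2b (-3.65), Mirt1 (-3.36), Fndc9 (-3.08), Bex6 (-3.06), 4930403D09Rik (-3.04), the immunoglobulin segment Igkv6-15 (-3.14) and the peptidase Cpa6 (-3.02) fell too, and 1700095A21Rik was at the floor in callus, so that no fold is given for it. Among the 12, 1700110I01Rik, Insyn2b, Mirt1 and 4930403D09Rik kept their calls under all 34 alternatives, while Bex6 lost its call under 17, Igkv6-15 under 6 and Fndc9 under 5.

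**Figure D2:**
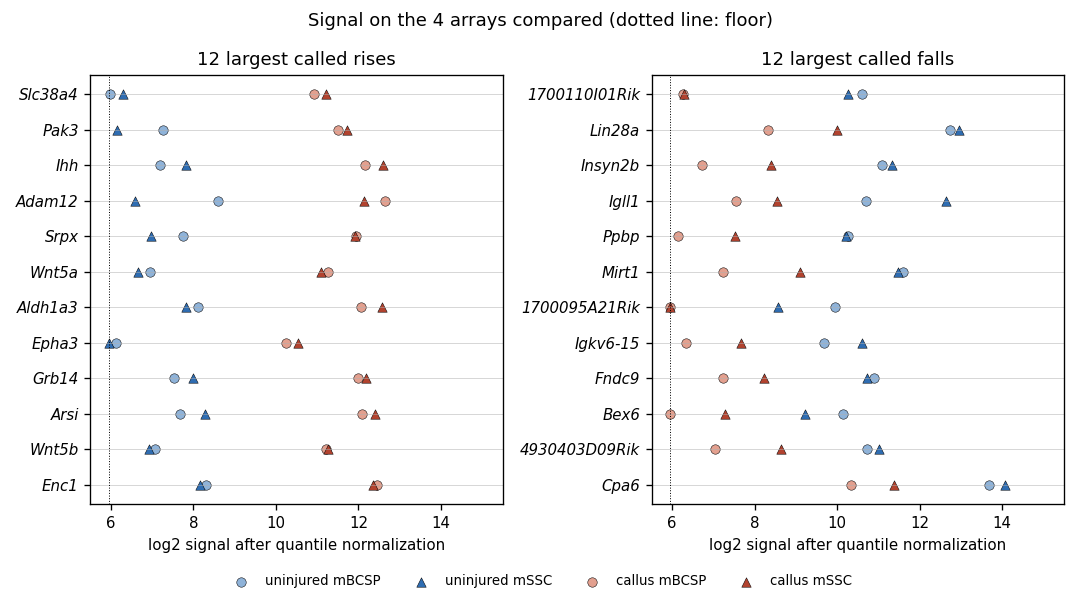
Log2 signal of the 12 called genes with the largest rises (left) and falls (right) on the 4 arrays, with circles for mBCSPs, triangles for mSSCs, blue for uninjured bone, red for callus and a dotted line at the floor of 5.95. Red and blue symbols do not overlap in any of these genes, which were chosen by the size of their differences. For most falls the callus mSSC array lies between the callus mBCSP array and the uninjured arrays.

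Gene lists are described by how many members were called and by the median log2 FC, to be read against 9.12% called higher, 4.05% called lower and a median of -0.05 over all genes. All 17 members tested of procollagen processing and crosslinking rose, with a median of 2.47 and a range of 1.21 to 3.81. P3h1, which hydroxylates collagen prolines as a partner of Crtap, stood at 8.34 and 8.17 against 12.01 and 12.12 (log2 FC 3.81, SE 0.55, adjusted p = 0.00179). Plod1, a lysyl hydroxylase, stood at 8.72 and 8.53 against 12.31 and 12.10 (log2 FC 3.58, SE 0.33, adjusted p = 0.000203). In both genes the callus arrays were more than 3 log2 units above the uninjured arrays. The prolyl hydroxylases P4ha1, P4ha2 and P4ha3 had log2 FCs of 2.03, 2.77 and 2.47, and the other lysyl hydroxylases Plod2 and Plod3 had 1.67 and 2.82. The lysyl oxidases, which crosslink secreted collagen, ranged from 1.41 for Lox to 3.12 for Loxl4. Serpinh1, the collagen chaperone, had 1.89, and the procollagen protease Bmp1 with its enhancers Pcolce and Pcolce2 had 1.74, 2.51 and 2.10. All 17 also rose with the blood covariate and with the other pair of OVX callus arrays. Without the callus mBCSP, callus mSSC, uninjured mBCSP or uninjured mSSC array in turn, 15, 16, 16 and 13 remained called.

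Genes of hypoxia and glycolysis also rose, 13 of 18 with a median of 1.03. Adm, a vasodilating peptide induced by low oxygen, stood at 9.84 and 8.95 against 13.15 and 13.22 (log2 FC 3.79, SE 0.41, adjusted p = 0.000402). Car9, a carbonic anhydrase of hypoxic cells, stood at 5.95 and 6.73 against 9.62 and 9.69 (log2 FC 3.32, SE 0.64). Its uninjured mBCSP array was at the floor, so this log2 FC is a bound. The glycolytic enzymes changed less, with 1.74 for Pfkl, 1.67 for Tpi1, 1.04 for Ldha, 0.83 for Aldoa, 0.77 for Pkm, 0.73 for Pgk1 and 0.53 for Pgam1. Vegfa, the main growth factor of blood vessels, stood at 12.49 and 12.20 against 13.65 and 13.75 (log2 FC 1.36, SE 0.21), and the glucose transporter Slc2a1 had 1.67. Members that were not called were Pdk1 at 1.01, Hk2 at 0.16 and Ero1a at -0.59, with Ndrg1 and Egln3. With the blood covariate 9 of 18 were called, and with each array of the comparison left out, in the order above, 6, 10, 7 and 6.

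Several of these promoters hold the core of the hypoxia response element, ACGTG, the letters bound by hypoxia-inducible factors. The promoter of Ldha, a glycolytic gene, and that of P4ha1, a collagen hydroxylase, are shown because both groups rose together, along with Pgk1 and Serpinh1. Each sequence is the 250 bases before the annotated start (RefSeq, GRCm38.p6), in the direction of the gene, with ACGTG or its reverse complement CACGT in capitals. Where both overlap the capitals run on as CACGTG.
Ldha, chr7:46845554-46845803, plus strand, the first of 2 starts: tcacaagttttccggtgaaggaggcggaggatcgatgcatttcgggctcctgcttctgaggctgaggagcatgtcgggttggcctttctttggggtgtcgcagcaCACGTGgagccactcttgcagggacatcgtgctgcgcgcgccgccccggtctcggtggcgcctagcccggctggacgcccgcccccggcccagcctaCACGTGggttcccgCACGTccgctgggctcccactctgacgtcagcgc
Pgk1, chrX:106186850-106187099, plus strand: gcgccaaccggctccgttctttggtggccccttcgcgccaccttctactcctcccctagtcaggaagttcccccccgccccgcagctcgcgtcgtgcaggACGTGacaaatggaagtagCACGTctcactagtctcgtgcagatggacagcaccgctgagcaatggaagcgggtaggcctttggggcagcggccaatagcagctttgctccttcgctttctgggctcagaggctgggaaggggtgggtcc
P4ha1, chr10:59323046-59323295, plus strand: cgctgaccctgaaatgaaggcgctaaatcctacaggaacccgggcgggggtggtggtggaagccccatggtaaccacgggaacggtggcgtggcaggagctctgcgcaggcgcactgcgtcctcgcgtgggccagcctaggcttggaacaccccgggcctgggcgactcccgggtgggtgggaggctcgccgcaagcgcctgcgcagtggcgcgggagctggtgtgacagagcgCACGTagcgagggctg
Serpinh1, chr7:99353240-99353489, minus strand: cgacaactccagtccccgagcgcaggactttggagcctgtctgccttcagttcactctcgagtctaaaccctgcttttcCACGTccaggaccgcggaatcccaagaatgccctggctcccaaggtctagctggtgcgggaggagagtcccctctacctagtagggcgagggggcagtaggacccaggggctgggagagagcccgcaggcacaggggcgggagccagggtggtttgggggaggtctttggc
Ldha shows 3 such stretches, Pgk1 has 2, and P4ha1 and Serpinh1 have 1 each. The letters were found on either strand in 13 of 23 starts of the hypoxia list (56.5%) and in 6 of 13 of the procollagen list (46.2%), against 16.6% of all promoters of this length and 20.5% of those of the genes tested. Other lists had 42.1% (secretory), 28.6% (mitosis), 26.3% (DNA replication), 18.2% (cartilage) and 11.1% (fibrous), and the starts of mitosis genes called lower had 57.1% (4 of 7). A match of so few letters is a description of the sequence and not a binding site.

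The secretory pathway and the unfolded protein response had 9 of 22 members called, all higher, with a median of 0.91. Kdelr3, which returns proteins to the endoplasmic reticulum, stood at 10.68 and 10.73 against 13.61 and 13.70 (log2 FC 2.95, SE 0.31, adjusted p = 0.000394). Creb3l2, a factor of secretory cells, had 1.99, its target Sec23a, a coat protein of transport vesicles, 1.38, and the chaperone Hsp90b1 0.92. The stress reporters Herpud1 and Ddit3 were not called, at 0.29 and -0.45. With the blood covariate 12 members were called, and with each array of the comparison left out 2, 4, 3 and 2.

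Cartilage genes rose in 13 of 20 members with a median of 1.75, and of 8 hypertrophic cartilage genes 5 rose with a median of 2.16. Cnmd, a cartilage protein that opposes vessel growth, stood at 11.19 and 11.15 against 14.75 and 14.68 (log2 FC 3.55, SE 0.35, adjusted p = 0.000225). Col11a2 stood at 10.10 and 10.32 against 13.36 and 13.49 (3.21, SE 0.35) and Col9a3 at 12.14 and 11.87 against 14.94 and 14.96 (2.95, SE 0.29). These collagens of cartilage fibrils were at similar levels in mBCSPs and mSSCs in both states. Acan, the main proteoglycan of cartilage, had 2.10 and Sox9, its regulator, 1.70 (SE 0.43, adjusted p = 0.0258), the latter lost under 8 of 34 alternatives. Col2a1, the main collagen of cartilage, was bright on all 4 arrays, at 14.34 and 14.31 and 14.46 and 14.39, and was not called (0.10, SE 0.30). Among hypertrophic genes, Pth1r, the receptor that answers to parathyroid hormone-related protein, stood at 11.21 and 11.08 against 14.50 and 14.65 (3.43, SE 0.33), Panx3 had 3.08 and the collagenase Mmp13 2.24. Col10a1 was 2.08 higher with an SE of 1.41 and was not called. With each array of the comparison left out in turn, 5, 10, 8 and 5 cartilage genes and 4, 4, 4 and 4 hypertrophic genes were called, and with the blood covariate 10 and 4.

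Genes of the fibrous repair matrix rose in 15 of 26 members, with a median of 1.28. Postn, a matrix protein of healing tissue, stood at 11.60 and 10.95 against 14.42 and 14.29 (log2 FC 3.08, SE 0.20, adjusted p = 7.14e-05). Col12a1 stood at 10.58 and 9.93 against 13.36 and 13.00 (2.92, SE 0.28), Col6a2 had 2.63, the tenascins Tnn and Tnc 2.45 and 2.25, and Fbn2, a fibrillin, 2.15 (SE 0.42). Postn, Col12a1, Col6a2 and Tnn were higher in mBCSPs than in mSSCs in both states. Dcn and Fn1, bright on all 4 arrays, were not called, at 0.34 and 0.71, nor was Col14a1 at 1.71 (SE 0.79). With the blood covariate 14 were called, and with each array of the comparison left out 10, 12, 14 and 9.

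Of 19 matrix proteases and inhibitors 9 rose, with a median of 1.49. Mmp14, a collagenase of the cell surface, stood at 9.52 and 8.69 against 12.42 and 11.87 (3.04, SE 0.30), and Mmp2, which it activates, at 11.26 and 10.46 against 13.82 and 13.54 (2.82, SE 0.23). Adamts4, an aggrecan-cutting protease, had 3.41 (SE 0.52) and the inhibitor Timp1 2.46. Mmp9, a protease that neutrophils and osteoclasts also make, was not called, at -0.92 (SE 0.43). With each array left out 7, 10, 9 and 7 were called.

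Of 14 bone-forming genes 4 rose, with a median of 0.92. Sp7, the osterix factor that bone formation needs, stood at 6.93 and 7.16 against 9.85 and 9.92 (2.84, SE 0.33, adjusted p = 0.000593). Alpl, alkaline phosphatase, stood at 12.42 and 12.13 against 13.90 and 13.94 (1.65, SE 0.45, adjusted p = 0.0341), a call lost under 18 of 34 alternatives. Smpd3 had 2.79 and Col1a1 1.06, while another probe set of Col1a1 showed 0.05. Ibsp and Sparc, at 0.21 and 0.39, were not called. Without each array in turn 1, 2, 3 and 1 were called. Of 23 transcription factors of the skeletal lineage 7 rose with a median of 1.14: Sp7, Shox2 (2.46), Snai2 (2.05), Prrx2 (1.93), Sox9, Tbx15 (1.68) and Prrx1 (1.23). Without each array in turn 3, 5, 5 and 3 of these factors were called. Of 12 Hox genes 3 rose with a median of 0.27, namely Hoxc10 (1.43), Hoxb2 (1.41) and Hoxc8 (1.28), and none was called without any single array of the comparison.

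**Figure D3:**
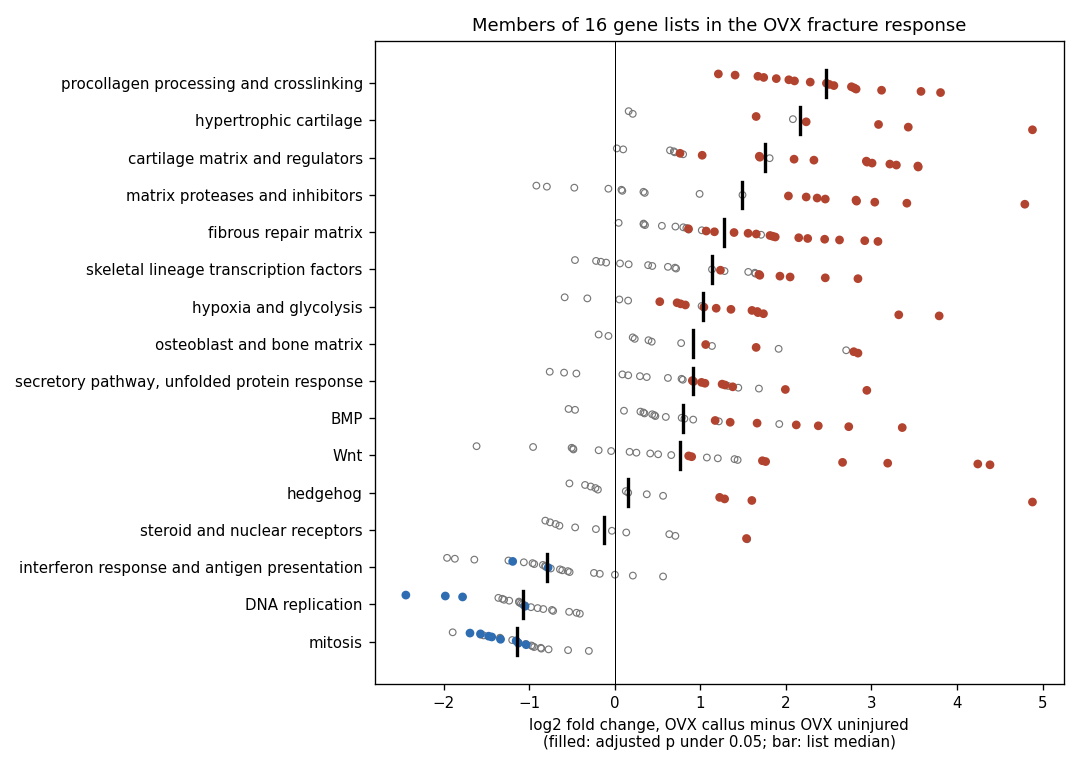
Log2 fold changes of the members of 16 gene lists, callus minus uninjured in OVX mice, with 1 point per gene, filled red or blue where called higher or lower and open where not called, and a bar at the list median. Every point of the procollagen list is filled and above 1, and the points of the mitosis and DNA replication lists lie below 0.

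Among signalling pathways, the hedgehog list had 4 of 13 members called, with a median of 0.16. Beside the ligand Ihh, the receptor Ptch1 stood at 12.22 and 11.70 against 13.21 and 13.17 (1.23, SE 0.36, adjusted p = 0.0449), the transducer Smo at 11.51 and 10.97 against 12.57 and 12.47 (1.28, SE 0.28, adjusted p = 0.013), and the factor Gli3 at 8.60 and 7.91 against 9.89 and 9.82 (1.60, SE 0.39, adjusted p = 0.0223). The change in the ligand was larger on the log2 scale than that in any other member. Gli1, another factor of the pathway, was not called, at 7.56 and 7.80 against 7.71 and 7.90 (0.13, SE 0.44). Neither was Gli2 (-0.23), and the other ligands Shh and Dhh stood at -0.53 and -0.20. Ptch1 lost its call under 20 of 34 alternatives, Gli3 under 6 and Smo under 5, and only 1 member, Ihh, was called when any single array of the comparison was left out.

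Of 24 Wnt genes 8 rose, with a median of 0.76. Beside Wnt5a and Wnt5b these were the receptors Fzd1 (2.66) and Fzd2 (1.76) and the coreceptor Lrp6 (0.86). The others were the secreted inhibitors Sfrp2 (3.19) and Sfrp1 (1.73), and Dkk3 (0.90) of the Dickkopf family. Sfrp2 stood at 6.39 and 5.95 against 9.60 and 9.12, so its uninjured mSSC array was at the floor. Axin2, a target of beta-catenin, was not called at 0.51 (SE 0.45), nor were Lef1 at -0.95 and the inhibitor Dkk1 at -1.61 (SE 0.66). Of 22 BMP genes 7 rose, with a median of 0.80. The ligands among them were Gdf5, which marks forming joints and stood at 8.20 and 8.0 against 11.49 and 11.42 (3.36, SE 0.32), Bmp6 (2.12) and Bmp5 (1.66). The others were the inhibitors Chrdl1 (2.73) and Bambi (2.38) and the targets Id1 (1.35) and Id3 (1.17). Bmp2, an inducer of bone formation, was bright throughout, at 12.35 and 12.30 against 12.64 and 12.62, and was not called (0.30, SE 0.41). Without each array in turn 4, 4, 5 and 4 Wnt genes and 2, 6, 5 and 2 BMP genes were called.

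Growth factor systems followed with smaller counts. In the IGF list 4 of 11 rose with a median of 1.1, among them Igf2, which stood at 10.08 and 8.13 against 12.68 and 12.51 (3.49, SE 0.55), Igf1 (2.64) and Pappa, a protease that frees IGF from its carriers (2.11). Of 15 FGF genes 4 rose with a median of 0.26: the receptors Fgfr3 (2.54), Fgfr1 (1.42) and Fgfrl1 (2.13) and the ligand Fgf7 (1.94). Fgfr2 had 2.09 with an SE of 0.72 and was not called (adjusted p = 0.082). Of 16 TGF-beta and activin genes 6 rose with a median of 0.81, including the ligands Tgfb2 (1.75) and Tgfb3 (1.63) and the carrier Ltbp1 (1.53). In the PDGF, VEGF and angiopoietin list 3 of 14 rose with a median of 0.68: Vegfa, Pdgfrb (1.52) and Pdgfc (1.14). Of 11 matrix-binding integrins 5 rose, led by Itga1 (2.43) and Itga5 (1.60), and of 12 contractile genes 5 rose, among them Tpm2 (1.92) and Acta2 (1.17). Without each array of the comparison in turn, 1, 3, 3 and 1 IGF genes, 2, 3, 3 and 2 FGF genes, 2, 6, 3 and 1 TGF-beta genes, 2, 2, 2 and 1 PDGF and VEGF genes, 2, 2, 3 and 2 integrins and 1, 1, 1 and 2 contractile genes were called.

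Signals that act on osteoclasts and blood cells changed in a few genes. Tnfsf11, the RANKL ligand that drives osteoclast formation, stood at 6.18 and 6.82 against 9.44 and 10.05 (3.25, SE 0.31, adjusted p = 0.000203). Its decoy receptor Tnfrsf11b stood at 11.70 and 11.41 against 12.03 and 12.10 and was not called (0.51, SE 0.56). RANKL rose in both populations, while the decoy differed by less than its SE. Il6 was at the floor on both uninjured arrays and at 8.25 and 8.25 in callus (adjusted p = 0.000883), and Il11 stood at 7.76 and 7.81 against 10.73 and 10.77 (2.97, SE 0.34). These were 2 of 9 osteoclast-directing factors and 2 of 11 genes of the oncostatin and IL-6 family, Il6 being in both lists. Osm itself was not called, at -1.17 (SE 0.65). Of 19 chemokines and inflammatory genes 2 rose, Il1r1 (1.03) and Cxcl5, at the floor in uninjured bone, with a list median of -0.24. Of 15 marrow niche factors 3 rose, with a median of 0.70: Ptn (3.05), Igf1 and Angptl4 (2.39). Cxcl12 and Kitl, which hold blood stem cells in marrow, were not called. Without the callus mBCSP, callus mSSC, uninjured mBCSP or uninjured mSSC array in turn, 1, 2, 2 and 2 marrow niche factors, 0, 2, 0 and 0 chemokine and inflammatory genes, 2, 3, 2 and 2 osteoclast-directing factors and 2, 2, 2 and 2 genes of the IL-6 family were called, and without the title form term 0 marrow niche factors and 0 chemokine and inflammatory genes.

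Genes of the cell cycle were lower in callus. All 25 mitosis genes had a log2 FC below 0, with a median of -1.14, and 8 fell. All 21 DNA replication genes were below 0 with a median of -1.08, and 4 fell. Ttk, a kinase of the spindle checkpoint, stood at 10.50 and 10.75 against 8.77 and 9.34 (-1.57, SE 0.37, adjusted p = 0.0193), and Ccna2, cyclin A2, at 14.01 and 14.12 against 12.34 and 12.92 (-1.44, SE 0.35, adjusted p = 0.021). Mcm10, which starts replication, stood at 11.91 and 12.16 against 9.27 and 9.92 (-2.44, SE 0.52, adjusted p = 0.0131). In each of these the callus mSSC array lay between the callus mBCSP array and the uninjured arrays. Of the remaining called genes, Bub1, another such kinase, had -1.69, Hmmr -1.47, Ube2c -1.33, Ccnb2 -1.15, Kif23 -1.13, Plk1 -1.04, Mcm3 -1.98, Ccne2 -1.78 and Cdc45 -1.05. Mki67, the common marker of dividing cells, was not called, at 13.42 and 13.67 against 11.91 and 12.91 (-1.14, SE 0.44, adjusted p = 0.117). Without each array of the comparison in turn 0, 9, 0 and 0 mitosis genes and 0, 2, 0 and 0 DNA replication genes were called, and without either callus array with a 2-letter injury title 23 and 10. With the blood covariate 5 mitosis genes were called with a median of -1.04 and 0 DNA replication genes with a median of -0.19. Blood cell markers were lower in callus as well, with the values given below, and their part in the lower cell cycle levels was not tested.

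The CCAAT box is shown for a pair of the mitosis genes that fell, because the letters are frequent in this list. The capitals mark CCAAT or its reverse complement ATTGG in the 250 bases before the start (RefSeq, GRCm38.p6).
Ccnb2, chr9:70421555-70421804, minus strand: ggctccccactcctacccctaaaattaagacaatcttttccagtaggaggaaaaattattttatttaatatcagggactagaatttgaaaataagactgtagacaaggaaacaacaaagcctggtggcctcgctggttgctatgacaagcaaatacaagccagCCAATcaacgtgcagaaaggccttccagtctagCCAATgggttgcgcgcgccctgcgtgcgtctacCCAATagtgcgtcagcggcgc
Ube2c, chr2:164769679-164769928, plus strand: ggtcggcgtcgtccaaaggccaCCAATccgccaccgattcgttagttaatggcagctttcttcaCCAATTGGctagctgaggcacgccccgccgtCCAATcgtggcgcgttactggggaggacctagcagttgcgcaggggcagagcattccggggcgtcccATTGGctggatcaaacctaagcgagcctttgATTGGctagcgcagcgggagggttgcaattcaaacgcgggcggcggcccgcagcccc
Ccnb2 has 3 stretches in capitals and Ube2c has 5, one of which holds both letter orders overlapping. The box was found on either strand in 18 of 21 starts of the mitosis list (85.7%) and in 13 of 19 of the DNA replication list (68.4%). It was found in 33.8% of all promoters and in 34.5% of those of the genes tested. In the secretory list it was found in 78.9% of starts, in the cartilage list in 31.8% and in the fibrous list in 22.2%. The letters TTTGAA, found in promoters of late cell cycle genes, were present in 38.1% of mitosis starts and 10.5% of DNA replication starts, against 16% of all. In the fibrous list they were present in 27.8% of starts, in the cartilage list in 22.7% and in the secretory list in 0%. Among starts of the mitosis genes called lower, 2 of 7 held them (28.6%), against 17.8% of starts of all genes called lower.

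Of 12 steroid and nuclear receptors 1 rose, Gper1, a membrane receptor that binds estrogen, which stood at 7.52 and 7.60 against 9.15 and 9.04 (1.53, SE 0.34, adjusted p = 0.0144) and lost its call under 5 of 34 alternatives. Esr1, encoding estrogen receptor alpha, stood at 9.79 and 9.67 against 8.87 and 9.29 and was not called (-0.65, SE 0.32, adjusted p = 0.202). Esr2, encoding estrogen receptor beta, stood at 7.45 and 8.09 against 7.49 and 7.13 (-0.46, SE 0.36). Pgr, the progesterone receptor, did not pass the filter on dim genes, with 12 of 17 arrays at the floor. Of 15 genes known to answer to estrogen in other tissues, Greb1 (2.20) and Ccn5 (1.54) rose and Myb (-2.24) fell, with a median of 0.15 over the list. Greb1 lost its call under 10 of 34 alternatives, Myb under 11 and Ccn5 under 4. With each array of the comparison left out in the order above, 0, 1, 0 and 0 receptors and 1, 1, 0 and 1 estrogen-responsive genes were called. Efna2, an ephrin that the study names, was not called at 0.28 (SE 0.29).

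Of 20 respiratory chain genes, with a median of 0.20, limma called 0, and 5 had an unadjusted p under 0.05. Of 10 cytosolic ribosomal protein genes, with a median of 0.33, it called 0, and 1 had an unadjusted p under 0.05. Of 18 immediate early genes, which rise when tissue is handled, 1 was called, Ccn1 (1.23, SE 0.15), with a median of 0.33, while Fos was not called at -0.12. Of 10 heat shock genes 1 fell, Hspa1b (-1.31), with a median of 0.02, a call lost under 21 of 34 alternatives. Of 9 adipocyte genes limma called 0, and 1 had an unadjusted p under 0.05, with a median of -0.28. Of 22 interferon response and antigen presentation genes 2 fell, B2m (-0.78) and Irf9 (-1.19), with a median of -0.79, and 0 were called without any single array of the comparison.

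Markers of blood cells were lower in callus, most of all in mBCSPs. The mean level of 16 macrophage markers was 10.54 and 10.73 in uninjured bone and 8.97 and 10.16 in callus, that of 11 neutrophil markers 13.88 and 13.97 against 12.52 and 13.80, and that of 9 erythroid markers 11.67 and 11.86 against 9.87 and 11.16. B and plasma cell markers (11) stood at 9.72 and 10.23 against 7.56 and 8.89, and platelet markers (9) at 8.26 and 8.26 against 6.89 and 7.42. Callus thus had lower levels of all 5 lists in both populations, by more in mBCSPs. The size of the fall depended on the pair of OVX callus arrays: with the other pair the median log2 FC was -3.21 in place of -0.68 for neutrophil markers (8 called in place of 1), -3.06 in place of -1.13 for macrophage markers (10 in place of 2), -3.51 in place of -1.30 for erythroid markers (0 in both) and -2.44 in place of -1.56 for B and plasma cell markers (2 in place of 1). Of these markers Fcgr3 (-1.66) and Fcer1g (-1.41) of macrophages, Mmp8 (-1.51) of neutrophils, Ppbp and Clec1b (-1.53) of platelets and Igll1 of B cells were called lower, and limma called 0 of 8 erythroid markers, with SEs of 1.09 to 1.97 and 0 at an unadjusted p under 0.05. Fewer called markers do not show that a cell type stayed the same. Limma called 0 of 7 T and NK cell markers (median -0.52), 0 of 5 of mast cells (-0.22) and 0 of 7 of skeletal muscle (-0.55), with 1 of each list at an unadjusted p under 0.05. Of Schwann cells 1 of 4 (Cdh19, 2.82), of pericytes 1 of 5 (Cspg4, 2.09) and of osteoclasts 1 of 9 (Ctsk, 1.58). Acp5, a defining osteoclast enzyme, was not called at -0.65, and Calcr, another, was at the floor on all 17 arrays. The part of these cells in the changes above was not tested, beyond the counts given with the blood covariate. That covariate averages the blood cell markers themselves. With it the medians were 1.91 for erythroid, 0.07 for B and plasma cell, 0.18 for neutrophil and 0.20 for mast cell markers. Those of macrophage (-0.38), platelet (-0.44) and T and NK cell markers (-0.24) stayed below 0.

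On the 4 arrays compared, endothelial genes separated the populations. All 15 endothelial markers were higher in callus in mBCSPs, and 1 of 15 was in mSSCs. Their mean level was 9.68 in uninjured and 11.52 in callus mBCSPs, and 7.39 and 6.88 in mSSCs, although Tie2-positive cells were excluded in the sort. In sham callus with 3-letter titles it was 10.42 in mBCSPs and 6.90 in mSSCs. On the other pair of OVX callus arrays it was 7.78 and 7.12, so the mBCSP level was below that of uninjured OVX mBCSPs. On the uninjured arrays with 2-letter titles it was 7.55 and 7.45. Cdh5, the cadherin of vessel walls, stood at 10.12 and 12.73 in uninjured and callus mBCSPs and at 7.42 and 6.63 in mSSCs. Limma called 0 of the 15, with 0 at an unadjusted p under 0.05, in a contrast that averages over both populations. Of the other genes with the largest opposite differences, Myct1, also of endothelium, had 2.67 in mBCSPs and -0.89 in mSSCs, and Gpm6a 1.59 and -2.12, while an immunoglobulin kappa variable segment had -4.38 and 2.0. Rex2 stood at 9.36 in uninjured mBCSPs and at the floor on the other 3 arrays. Each of these values is a difference of 1 array from 1 other, with no replicate.

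**Figure D4:**
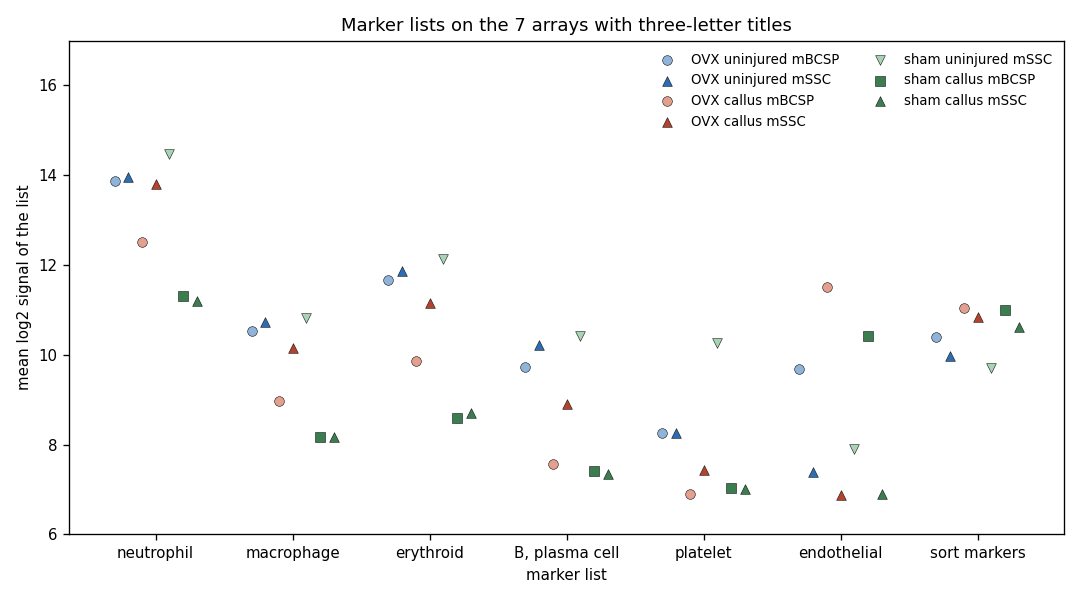
Mean log2 signal of 7 marker lists on the 7 arrays with 3-letter titles, with blue for OVX uninjured, red for OVX callus and green for sham arrays. The blood cell lists are lower on callus than on uninjured arrays, and the endothelial list is high on the mBCSP arrays, most of all in OVX callus at 11.52.

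The same genes were then read in the other fracture responses of the series. These share no array with the OVX response: the sham response in mSSCs, also with 3-letter titles (1 callus array minus 1 uninjured array), and a response in each population from arrays with 2-letter injury titles, whose callus arrays do not state the surgery. Of the 1323 genes called higher, 99.5% were above 0 in the sham mSSC response, against 55.4% of all genes, and of the 588 called lower 96.6% were below 0, against 44.2%. In the 2-letter mSSC response these shares were 95.4% and 93.2%, against 48.7% and 50.6%, and in the 2-letter mBCSP response 84.9% and 84.4%, against 49.9% and 49.4%. The response of the OVX mice thus had the direction of the other responses in most called genes. The median of the genes called higher was 1.56 in OVX mBCSPs and 1.62 in OVX mSSCs, against 2.27 in sham mSSCs and 2.12 in 2-letter mSSCs, and 1.07 in 2-letter mBCSPs. The genes were chosen in the OVX arrays, so these medians are a description. The mean of 72 blood cell genes fell from uninjured bone to callus by unlike amounts. It went from 10.75 to 8.05 in sham mSSCs, 10.05 to 8.65 in OVX mBCSPs and 10.27 to 9.61 in OVX mSSCs. On the 2-letter injury arrays it went from 10.76 to 9.90 in mBCSPs and 9.26 to 8.76 in mSSCs. The part of blood cells in the size of these responses, here and below, was not tested.

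The SD of all gene differences was 0.98 in OVX mBCSPs and 0.93 in OVX mSSCs, against 1.45 in sham mSSCs, 1.59 in 2-letter mSSCs and 1.21 in 2-letter mBCSPs. When the difference between responses was itself fitted, 146 genes (1.01%) had a more positive and 304 (2.1%) a more negative OVX response than the 2-letter injury arrays, and 144 of the 304 were genes called higher in OVX callus. Against the sham response 7 genes differed (0.0483%), 1 more positive and 6 more negative in OVX, and 1350 had an unadjusted p under 0.05. The sham test rests on the single uninjured sham mSSC array with a 3-letter title and could not be fitted without it. The 2-letter counts rest on single arrays too: without the mSSC callus array of that form 2778 genes differed, without its mBCSP counterpart 1204 and without the uninjured mBCSP array 875.

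Several matrix genes were among these. Of 26 fibrous repair genes 20 had a more negative OVX response than the 2-letter arrays, as had 8 of 20 cartilage genes and 4 of 17 procollagen genes, against 2.1% of all genes. Against the sham response limma called 1 fibrous, 1 cartilage and 0 procollagen genes, with 16, 9 and 9 at an unadjusted p under 0.05. On the uninjured arrays the fibrous list averaged 11.46 and 10.89 in OVX mice, against 8.75 and 8.61 with 2-letter titles. Its callus levels were 12.70 and 12.45 against 12.54 and 12.75. The cartilage list averaged 11.61 and 11.50 against 8.68 and 8.58 on uninjured arrays. For the procollagen list these were 10.11 and 9.96 against 8.63 and 8.24. In callus both of these lists were lower on the 2-letter arrays too. Whether these levels account for the counts was not tested. Postn differed by -3.37 (SE 0.29) from the 2-letter and by -4.77 (SE 0.33) from the sham response. On the uninjured arrays Postn stood at 11.60 and 10.95 in OVX mice, against 6.48 in sham mSSCs with a 3-letter title and 8.0 and 8.01 on the 2-letter arrays, while callus stood at 14.42 and 14.29 in OVX mice, 14.40 and 14.31 in sham mice and 14.54 and 14.36 on the 2-letter arrays. The callus arrays thus lay close together and the uninjured arrays far apart. Mmp13 had the same order, at 11.92 and 11.39 on the OVX uninjured arrays against 6.63, 5.95 and 6.49 on the other 3, and at 13.87 and 13.91 in OVX callus against 12.40 and 12.93 in sham callus. C1qtnf3, a secreted protein of cartilage, stood at 11.71 and 11.67 against 7.42, 5.95 and 7.61, with callus at 14.28 and 14.14 against 14.39 and 14.04. In these 3 genes the uninjured arrays differed more between the groups of mice than the callus arrays did. Ihh showed another pattern: its differences were 4.98 and 4.79 in OVX mice and 4.93 in sham mSSCs, against 0.61 and 1.95 on the 2-letter arrays (difference from the 2-letter response 3.60, SE 0.58, adjusted p = 0.00728).

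**Figure D5:**
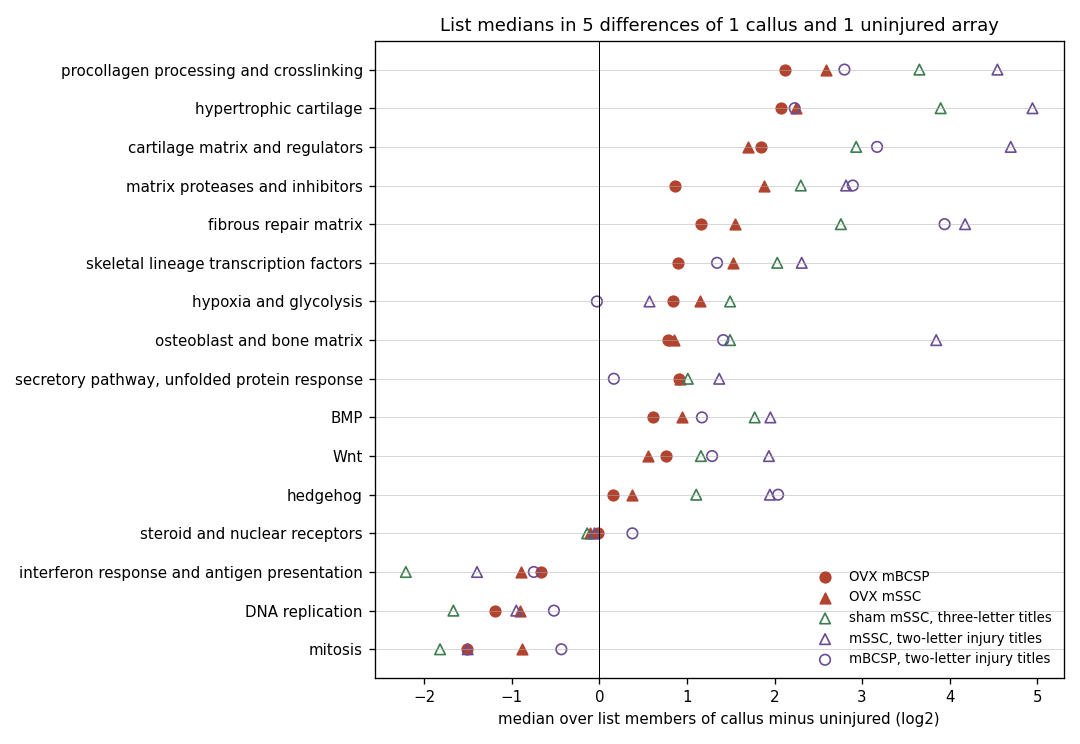
Median log2 difference of callus minus uninjured over the members of 16 gene lists in 5 pairs of arrays, with filled red symbols for OVX, green for sham and purple for 2-letter injury titles, circles for mBCSPs and triangles for mSSCs. For the procollagen, cartilage and fibrous lists the red symbols lie to the left of the green and purple ones, with medians in OVX mSSCs of 2.59, 1.70 and 1.55 against 3.65, 2.93 and 2.76 in sham mSSCs.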

How the data were processed

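Affymetrix mouse 430 2.0 arrays of sorted mSSCs and mBCSPs were analysed, 17 in all. The labels' processing notes name MAS5, whereas the study's methods describe 2 rounds of RNA amplification and dChip, so which tool made the values is not settled here. The deposited values are log2 signal per probe set, made by the authors before deposit. On the linear scale they were quantile normalized. Values under the 20th percentile were raised to it (log2 5.95), after which log2 was taken again. Of 45101 probe sets 34945 had 1 gene symbol in the platform annotation, and the probe set of highest mean stood for each of 18193 genes. Genes that reached the 40th percentile on 2 or more arrays, 14504 in all, entered limma 3.58.1 (R 4.3.3), with group, population and title form as terms, 7 residual degrees of freedom and eBayes with trend. Calls required an adjusted p (Benjamini-Hochberg, all genes) below 0.05. The number of arrays, 1 per population and group, limits the precision. The script was tested on simulated data.

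Groups came from the labels. The arrays, gene lists and tests were chosen with earlier results of these data known. Genes named were the 12 called genes of largest change in each direction, up to 4 of smallest p per list, those the study names, up to 5 per direction of each difference between responses, and the 5 whose populations differed most without sharing a direction. Of the 176 genes whose log2 FC is given, 48 were instead chosen after their values were seen, for their known roles. Of 696 list genes 53 had no named probe set and were not analysed here. Promoter sequences are from RefSeq (GRCm38.p6). Of the 14504 tested genes 11618 matched a promoter. The alternatives covered scaling, floor, filter, probe set choice, model terms, left-out arrays and the other OVX callus pair.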

Additional observations from a re-analysis of the deposited data

Results flagged for a closer look

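The difference between the OVX response and another fracture response passed limma's test (adjusted p under 0.05) in the following genes. Against the 2-letter injury arrays the OVX response was more positive in 146 genes and more negative in 304. The largest positive differences were those of Slc38a4 (4.03), Dcaf17 (3.95), Ihh (3.60), Hira (3.55) and Triobp (3.46) on the log2 scale. The largest negative ones were those of C1qtnf3 (-4.90), Dpysl3 (-4.65), Col9a1 (-4.61), Ppbp (-4.58) and Mmp13 (-4.53). Ppbp is a platelet gene, and it stood at 5.95 and 7.41 on the uninjured 2-letter arrays against 10.27 and 10.21 on the OVX uninjured arrays.

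Against the sham response 7 genes differed. Nhsl2 was more positive in OVX mice (4.23), and Postn (-4.77), C1qtnf3 (-4.37), Mmp13 (-3.94), Serpinf1 (-3.02) and Cpxm2 (-2.69) were the largest of the more negative ones. The sham response has only 1 uninjured array of the same title form.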

How the results depend on the processing

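Of the 145 genes named as called, 58 kept their call under all 34 alternatives and none changed direction under any. The blood covariate and the removal of both callus arrays of unstated surgery were chosen after seeing the data. For the 1323 genes called higher the counts were 859 without the title form term, 2366 with the 7 arrays of 3-letter titles, 2380 with the 4 arrays alone, 796 with the blood covariate and 2252 without both callus arrays of unstated surgery, and 317 to 2256 with single arrays left out. For the 588 called lower they were 342 without quantile normalization, 292 with median centring, 1726 with 7 arrays, 1753 with 4 arrays, 968 with the other OVX callus pair, 1221 with all 4 OVX callus arrays, 301 with the blood covariate, 1571 without both arrays of unstated surgery, and 38 to 1576 with single arrays left out. Past 2-fold in both populations, the other OVX callus pair gave 2418 higher and 1813 lower, with 5440 genes past 2-fold in mBCSPs and 5685 in mSSCs, and the lower count was 470 without quantile normalization and 465 with median centring. The 450 genes that differed from the 2-letter response became 254 with median centring, 25 without the title form term, 251 with the other OVX pair, and 169 to 2778 with single arrays left out. The 7 that differed from the sham response became 4 without quantile normalization, with 7 arrays or with the other OVX pair, 2 with median centring, without a floor or without the eBayes trend, 11 with a higher floor, a stricter filter or all 4 OVX callus arrays, 20 without a filter, 3 with the probe set of widest range, 83 without the title form term, 15 without the population term, 45 without both arrays of unstated surgery, and 1 to 45 with single arrays left out. Without the title form term the called members were 14 procollagen (17 with it), 6 cartilage (13), 8 fibrous (15) and 9 hypoxia genes (13). They were 1 bone-forming (4), 1 TGF-beta (6), 0 contractile (5) and 0 Hox genes (3), while 9 matrix proteases and inhibitors were called both ways. In each of these the cause was not tested.

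Uncalled genes that changed sign did so with the other OVX callus pair (Cdh5 -0.54, Dhh 0.16), with the blood covariate (Acp5 0.97, Cdh5 -1.03) or with the probe set of widest range (Dhh 0.64, Esr1 0.20). With single arrays left out, Acp5 ranged from -1.59 to 0.28, Cdh5 from -1.05 to 2.88, Gli1 from -0.15 to 0.40 and Gli2 from -0.85 to 0.40. With the other OVX pair the neutrophil median was -3.21, the macrophage median -3.06, the erythroid median -3.51 and the mast cell median -1.02, and in a changed direction the endothelial median was -0.43, the pericyte median -0.21, the estrogen-responsive median -0.33, the osteoclast median -0.06 and the receptor median 0.35. With the blood covariate the erythroid (1.91), B and plasma cell (0.07), neutrophil (0.18) and mast cell (0.20) medians changed direction. So did the endothelial (-0.19), adipocyte (0.60) and chemokine (0.18) medians. No paired analysis was possible because the labels carry no replicate numbers. Array signal gives no count of molecules, so no depth interval is given, and differences at the floor are bounds.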
